A study of Mus musculus with 8 samples.

Results

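Cluster 4 of the deposited cell table, labelled mitotic blasts here, held cells of the developing thymus called as S or G2M phase. It was followed across both sorted stages and both genotypes. Its members were all cells with the deposited cluster number 4, which came to 1204 of 10237 cells. They made up 11.8% of the cells and carried 28.3% of all unique molecular identifiers (UMIs, the count of captured transcripts). The study profiled double-negative (DN) thymocytes, which carry neither CD4 nor CD8, by 5′ single-cell RNA sequencing with matched sequencing of T cell receptor chains. The mice were knock-in (KI) animals (genotype GSK3B Ser389Ala), whose kinase GSK3β has a serine replaced by alanine, and wild-type (WT) C57BL/6J animals. DN cells were enriched with magnetic beads that removed cells stained for MHC class II, CD11b, CD4, CD8 or the kappa light chain, and were then sorted as DN4 (CD44-CD25-) or DN3 (CD44-CD25+). Neither the sex, the age nor the number of mice behind a library is given in the labels used here.

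In the thymus, a DN3 cell that assembles a productive T cell receptor β chain pairs it with the invariant pre-Tα chain and passes β-selection, after which it grows, divides rapidly and loses CD25 on its way to the CD4 and CD8 double-positive stage. A dividing cell copies its DNA and its histones in S phase and then builds the machinery of mitosis in G2. Kinases such as PLK1 and Aurora B drive mitotic entry and chromosome alignment, motors and bundling proteins build the spindle, and the anaphase-promoting complex ends mitosis by tagging cyclins for destruction.

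Cluster 4 was read in 393 KI DN4, 251 WT DN4, 347 KI DN3 and 213 WT DN3 cells, with 1 expression library and 1 receptor library per group. With no replicate library, no test was made between groups. A model with genotype and stage as additive terms over the 4 libraries, which has 1 residual degree of freedom, was not fitted. Intervals given with ratios and shares are exact 95% intervals of counting error only. The cells held 15.3% of the KI DN4 library (13.9 to 16.7), 17.0% of the WT DN4 library (15.1 to 19.0), 10.5% of the KI DN3 library (9.49 to 11.6) and 7.38% of the WT DN3 library (6.46 to 8.40). Since the genes that define the cluster differed between libraries, these shares are given without a comparison. Cells were deep, with medians of 23071, 23594, 20885 and 22941 UMIs in the same order of libraries. In cluster 3, the neighbouring cluster of dividing cells, the medians were 18095, 18637, 17427.5 and 18713.5. Cluster 4 pooled between 4746624 and 8869881 UMIs per library. Of the barcodes, 54 occurred in more than 1 expression library, and 9 of the cluster 4 cells carried such a barcode. Scrublet called 13 cluster 4 cells as doublets, of 73 such calls in all, and they were kept.

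The 4 markers of the cluster set it apart from cluster 3 and from the resting DN3 cells of clusters 0 and 1. They did not all do so against cluster 7, which was also dividing. Aurkb (Aurora B, GRCm38 chr11:69045647-69051664) stood at 260 CPM (UMIs of the gene scaled to the sum over the cells of that cluster and library) in KI DN4, 176 in WT DN4, 198 in KI DN3 and 181 in WT DN3 cells of cluster 4, against 42.9, 14.4, 18.6 and 12.8 CPM in the same libraries in cluster 3. Plk1 (Polo-like kinase 1, chr7:122159439-122169873) stood at 229, 145, 161 and 128 CPM, against 24.0, 11.5, 12.5 and 17.3 CPM in cluster 3. Both kinases were higher in cluster 4 in every library, as were 28.2% of all genes tested. Top2a (topoisomerase II, chr11:98992943-99024189), which untangles sister chromatids, had 744, 560, 605 and 477 CPM, against 188, 80.6, 87.4 and 47.9 CPM in cluster 3. Mki67 (Ki-67, chr7:135689784-135716361), which coats mitotic chromosomes, had 314, 278, 277 and 258 CPM, against 78.9, 55.4, 48.5 and 44.5 CPM. In the resting DN3 cells of clusters 0 and 1, Aurkb was at 1.52 CPM in KI and 0.702 CPM in WT cells, and Mki67 at 2.31 and 1.33 CPM. All 4 markers were thus higher in cluster 4 than in cluster 3 in all 4 libraries. The markers belong to the label and clusters were made from the same expression values, so the contrast is a description and no support for the label. With each cell thinned to 5000 UMIs, between 53.6% and 73.2% of cluster 4 cells of a library held an Aurkb UMI, against 1.04% to 15.3% in cluster 3 and 0.364% to 0.694% in clusters 0 and 1. Unthinned, the ranges were 90.0% to 97.7%, 14.6% to 37.3% and 0.399% to 0.729%. In cluster 7, Top2a stood at 980 CPM in KI DN4 and 633 CPM in WT DN4 cells, and Mki67 at 371 and 401 CPM. Both were above cluster 4 in the same libraries. Aurkb, at 182 and 113 CPM, and Plk1, at 168 and 108 CPM, were below it.

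**Figure D1:**
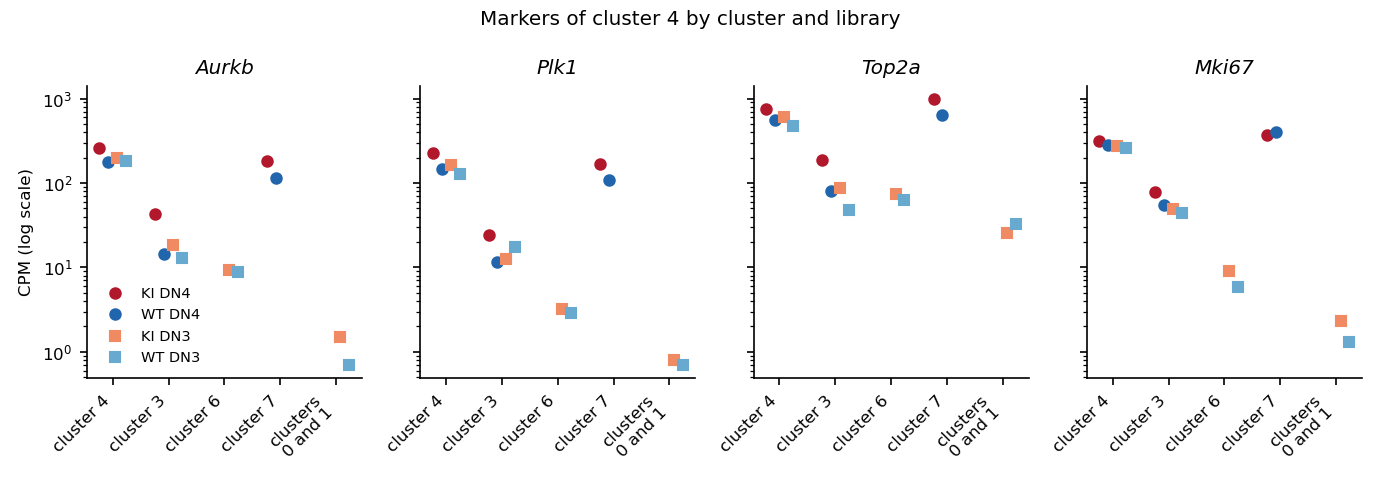
Levels of Aurkb, Plk1, Top2a and Mki67 in CPM (log axis) in clusters 4, 3, 6, 7 and 0 with 1, 1 point per library. In cluster 4 Aurkb lies between 176 and 260 CPM, and in cluster 3 between 12.8 and 42.9 CPM.

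Promoters of 4 of these mitotic genes and of 1 without a match are shown because many genes of the G2 and M programme are known to carry 2 short elements there, the cell cycle homology region (CHR, searched as TTTGAA and TTCGAA) and the CCAAT box (searched as CCAAT). Each window runs from upstream of the start site into the transcript (RefSeq, GRCm38.p6, gene strand), and capitals mark CHR or CCAAT matches on either strand, which did not overlap. The windows are chr7:122159185-122159484 (plus strand) for Plk1, chr11:99024140-99024439 (minus) for Top2a, chr19:37376132-37376431 (plus) for Kif11, chr2:69206164-69206463 (minus) for Spc25 and chr2:119618048-119618347 (plus) for Nusap1.
Plk1: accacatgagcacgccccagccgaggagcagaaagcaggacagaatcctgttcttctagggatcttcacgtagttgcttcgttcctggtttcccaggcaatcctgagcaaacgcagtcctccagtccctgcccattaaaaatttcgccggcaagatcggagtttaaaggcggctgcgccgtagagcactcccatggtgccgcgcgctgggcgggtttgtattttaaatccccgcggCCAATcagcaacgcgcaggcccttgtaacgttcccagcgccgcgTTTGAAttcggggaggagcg
Top2a: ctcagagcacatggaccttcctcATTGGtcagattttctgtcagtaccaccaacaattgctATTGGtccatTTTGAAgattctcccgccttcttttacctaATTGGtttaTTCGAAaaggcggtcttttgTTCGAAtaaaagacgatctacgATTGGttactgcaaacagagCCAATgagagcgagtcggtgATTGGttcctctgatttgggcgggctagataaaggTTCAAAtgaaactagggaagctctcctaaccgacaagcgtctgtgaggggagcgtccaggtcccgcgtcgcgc
Kif11: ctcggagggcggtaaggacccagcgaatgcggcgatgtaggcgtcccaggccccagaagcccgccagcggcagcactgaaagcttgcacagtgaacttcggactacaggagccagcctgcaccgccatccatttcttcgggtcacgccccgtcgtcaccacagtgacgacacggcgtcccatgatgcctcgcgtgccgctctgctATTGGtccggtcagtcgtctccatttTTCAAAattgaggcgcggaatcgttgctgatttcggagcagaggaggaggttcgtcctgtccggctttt
Spc25: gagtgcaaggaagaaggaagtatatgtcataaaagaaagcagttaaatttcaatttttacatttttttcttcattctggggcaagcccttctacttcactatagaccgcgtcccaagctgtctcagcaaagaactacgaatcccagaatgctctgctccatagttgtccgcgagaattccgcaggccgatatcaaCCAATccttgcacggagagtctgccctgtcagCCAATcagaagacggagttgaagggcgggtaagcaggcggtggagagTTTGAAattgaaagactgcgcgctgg
Nusap1: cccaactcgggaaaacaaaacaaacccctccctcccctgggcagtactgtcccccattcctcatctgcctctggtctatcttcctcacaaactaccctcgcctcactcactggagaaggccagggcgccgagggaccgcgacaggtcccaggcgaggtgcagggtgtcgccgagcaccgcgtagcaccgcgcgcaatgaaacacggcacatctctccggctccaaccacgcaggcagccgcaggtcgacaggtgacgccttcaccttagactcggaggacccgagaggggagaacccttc
Plk1 and Kif11 each held 1 match of either kind, Top2a held 4 CHR and 6 CCAAT matches, Spc25 held 1 CHR and 2 CCAAT matches, and Nusap1, the gene furthest above cluster 3, held 0 of either. Among 27025 RefSeq promoters of the same length, 19.4% held a CHR match, 37.9% a CCAAT match and 7.70% both. Of the 15 genes highest against cluster 3, 11 had an entry, of which 8 held CHR and 7 CCAAT. Nusap1, Mxd3 and Arhgef39 held neither. The Arhgef39 window (chr4:43508698-43508997, minus) lay upstream of the gene as annotated elsewhere (chr4:43496142-43499695), so it does not cover that start. Of the 98 genes with a promoter entry among those at least 2-fold higher in cluster 4 than in cluster 3, 60.2% held a CHR match and 66.3% a CCAAT match. In the lists of mitotic genes used below, 74 of 91 members had an entry, and 70.3% of them held CHR, 67.6% CCAAT and 56.8% both. Of the 30 promoters of the replication list, 16.7% held CHR and 60% held CCAAT. A match is a run of letters and was not tested as a binding site. Aurkb, Esco2 and Incenp had no promoter entry.

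Set against cluster 3 within each library, cluster 4 had 138 of 5223 genes at least 2-fold higher in the mean and higher in all 4 libraries, which is 2.64% of genes, and 5 lower by the same rule, which is 0.0957%. The genes tested had at least 20 CPM in either cluster, and their median log2 ratio was 0.02. Together these 143 genes became 229 at a floor of 5 CPM and 82 at 50 CPM. The leading genes were nearly all parts of the mitotic machinery. Nusap1, a microtubule protein of the spindle, had 236, 157, 181 and 150 CPM in KI DN4, WT DN4, KI DN3 and WT DN3 cells of cluster 4, against 17.6, 7.09, 5.66 and 8.91 CPM in cluster 3, a mean log2 ratio of 4.32 ± 0.54 (SD, n = 4 libraries). Nusap1 was higher in cluster 4 in every library, as were 28.2% of all genes tested. Spc25, a subunit of the NDC80 complex that ties kinetochores to microtubules, had 129, 81.1, 78.8 and 78.2 CPM, against 16.7, 8.64, 4.04 and 9.46 CPM (3.38 ± 0.61).
Ube2c, which loads ubiquitin for the anaphase-promoting complex, had 922, 626, 755 and 629 CPM, against 117, 124, 44.5 and 93.0 CPM (3.04 ± 0.75). Kif11, the kinesin that pushes spindle poles apart, had 174, 111, 125 and 90.2 CPM, against 29.8, 12.6, 10.9 and 13.9 CPM (2.98 ± 0.44). Incenp, the scaffold that holds Aurora B in the passenger complex, had 221, 157, 176 and 161 CPM, against 39.5, 25.5, 26.7 and 18.9 CPM (2.73 ± 0.26). These 3 genes were likewise higher in cluster 4 in every library, and they were picked for their high ratios.
The same ratio was 3.69 for Mxd3, a MAX partner that represses transcription, 3.50 for Esco2, which acetylates cohesin, 3.24 for Ccnf (cyclin F), 3.07 for Prc1, which bundles the central spindle, and 2.83 for Anln (anillin) of the contractile ring. Arhgef39 and Ckap2l were also among the 15 highest, with ratios of 2.82 and 2.80.

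The lists of mitotic genes were higher in cluster 4 nearly throughout. Of 21 measured spindle motors and microtubule proteins, 21 were higher in all 4 libraries and 18 at least 2-fold, with a median log2 ratio of 2.07. The mitotic kinases and entry genes had 18 of 20 higher and 1 lower (median 1.77), the kinetochore and checkpoint genes 18 of 19 (1.38), the condensin, cohesion and passenger genes 13 of 14 (1.47) and the genes of mitotic exit and cytokinesis 12 of 12 (1.70). Over all genes tested, 28.2% were higher in all 4 libraries and 20.8% lower. Cdk1, the kinase that drives mitotic entry, had 265, 205, 215 and 207 CPM in cluster 4, against 63.1, 38.1, 44.9 and 32.8 CPM in cluster 3. Its partner Ccna2 (cyclin A2) had 377, 309, 290 and 280 CPM, against 110, 82.4, 78.1 and 65.7 CPM. Ccnb1 (cyclin B1) had 190, 104, 135 and 106 CPM, against 52.2, 55.2, 52.6 and 35.1 CPM. All 3 were higher in cluster 4 in every library.
A few late mitotic genes did not follow. Ccnb2 (cyclin B2) was lower in all 4 libraries, at 200, 158, 175 and 145 CPM in cluster 4 against 214, 270, 220 and 224 CPM in cluster 3 (mean log2 ratio −0.46). Cenpa, the centromeric histone, stood at 185, 122, 172 and 127 CPM, against 168, 223, 184 and 170 CPM, with no common direction. Securin (Pttg1) had a ratio of −0.02, and Cdc20, which activates the anaphase-promoting complex, reached 0.63. These 4 genes thus differed by less than 2-fold in the mean, unlike the kinases and motors above.

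**Figure D2:**
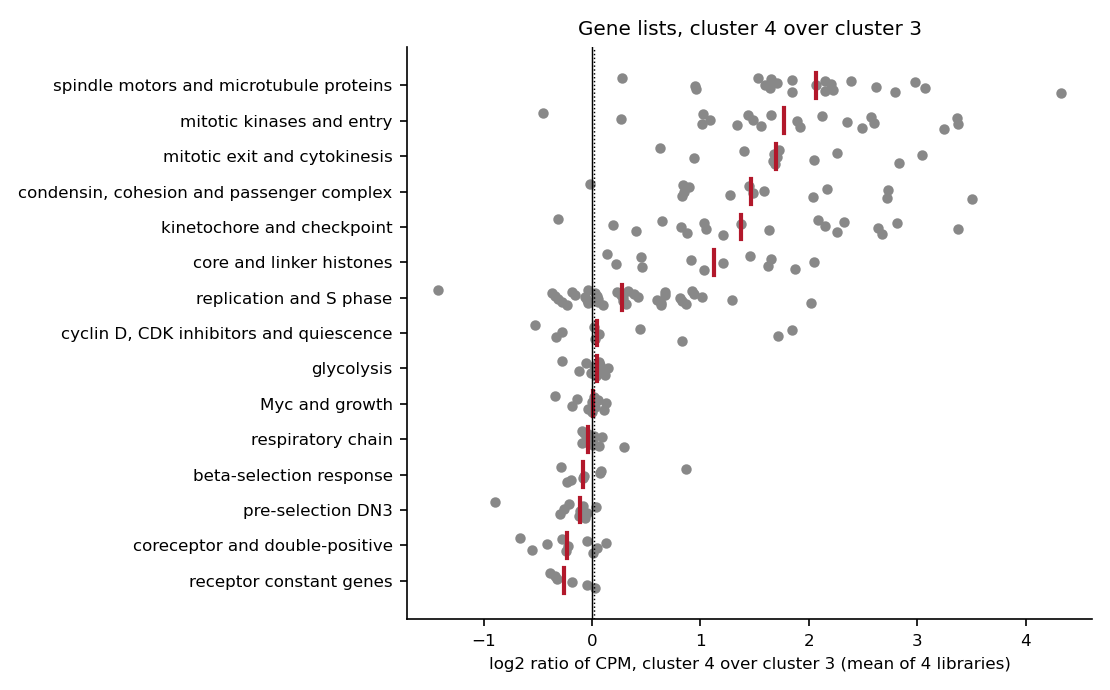
Log2 ratio of CPM in cluster 4 over cluster 3 for the genes of each list, mean of 4 libraries, 1 point per gene with a bar at the median; the dotted line is the median of all genes. The 5 mitotic lists have medians between 1.38 and 2.07, and the replication list has a median of 0.27.

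Replication genes separated the clusters far less. Of 38 measured, 17 were higher in all 4 libraries and 5 lower, with a median log2 ratio of 0.27 and 3 at least 2-fold higher. Mcm3, part of the replicative helicase, had 338, 346, 333 and 337 CPM in cluster 4, against 407, 357, 397 and 380 CPM in cluster 3. Rrm2, a subunit of ribonucleotide reductase, had 661, 737, 503 and 525 CPM, against 457, 331, 293 and 214 CPM. The helicase subunit was thus slightly lower and the nucleotide enzyme higher in each library of cluster 4. E2f8, a repressor of E2F targets, had a log2 ratio of 2.02 and Tyms (thymidylate synthase) of 1.29. The lowest named gene of the pathway was Ung, which removes uracil from DNA, at 29.9, 116, 97.1 and 125 CPM, against 210, 199, 237 and 215 CPM (−1.42 ± 0.96). KI DN4 cells were the lowest of the 4 for Ung.
Histone genes were higher, 12 of 12 measured with a median of 1.12. H2afx, the variant histone marked at DNA breaks, had 922, 663, 851 and 718 CPM, against 259, 189, 222 and 194 CPM. The inhibitors of CDK4 and CDK6 were also higher, Cdkn2d with a log2 ratio of 1.84 and Cdkn2c with 1.71. Single values of the clustered histone genes are uncertain because near-identical copies can share reads.

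Little else of the thymocyte programme differed between the 2 clusters. None of 10 pre-selection DN3 genes was higher in all libraries and 3 were lower (median −0.11). The β-selection response list had 1 of 8 higher and 2 lower (−0.08), the Myc and growth list 1 of 12 higher and 3 lower (0.01), the glycolysis list 2 of 12 higher and 0 lower (0.05) and the respiratory chain list 1 of 14 higher and 4 lower (−0.03). Rag1, of the recombinase, was lower at 28.4, 27.7, 15.4 and 16.9 CPM in cluster 4, against 47.0, 77.1, 25.5 and 26.2 CPM in cluster 3. Cd8b1, which encodes the CD8β coreceptor chain, was lower in each library too, at 147, 217, 11.7 and 9.69 CPM, against 191, 264, 19.4 and 23.4 CPM. The other genes lowest against cluster 3 included Gm28285 (−1.65), the MAX partner Mxd4 (−1.17), Pdcd4, an inhibitor of translation (−0.93), and Ltb, lymphotoxin β (−0.90).

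The deposited phase calls placed cluster 4 in S and G2M, with 0 cells in G1. S was the larger share in WT DN4 (62.5%), KI DN3 (55.9%) and WT DN3 cells (61.0%), so the mitotic label does not describe the phase of most cells there. G2M was called in 230 of 393 KI DN4 cells (58.5%, 53.5 to 63.4), 94 of 251 WT DN4 cells (37.5%, 31.4 to 43.8), 153 of 347 KI DN3 cells (44.1%, 38.8 to 49.5) and 83 of 213 WT DN3 cells (39.0%, 32.4 to 45.9). In cluster 3, the share was 14.0%, 16.9%, 16.7% and 12.5% in the same libraries. The KI DN4 library stood highest in cluster 4. With 1 library per group and intervals of counting error only, the difference was not tested. The method of the phase calls is not given in the sources used here, and such calls commonly read genes of mitosis and of replication, so gene differences between phases are a description.
Within cluster 4 the phases differed by the late genes. Cenpa averaged 287 CPM in G2M cells and 28.1 CPM in S cells, Ube2c 1333 and 191 CPM, and Cdc20 235 and 42.2 CPM, as means over libraries. Ung ran the other way, at 6.71 CPM in G2M cells and 161 CPM in S cells, as did Cdc6, which loads the helicase, at 34.8 and 124 CPM. All 39 measured replication genes were lower in G2M cells in every library, where 23% of all genes were lower and 25.8% higher. At 2-fold, 78 of 5293 genes were higher in G2M cells (1.47%) and 29 lower (0.548%). Median depth was 24311, 25399, 23312 and 25256 UMIs in G2M cells and 22047, 23022, 19608.5 and 21723.5 UMIs in S cells.
The contrast with cluster 3 was present within each phase. Among S cells alone, the median log2 ratio of cluster 4 over cluster 3 was 1.78 for spindle genes, 1.67 for mitotic kinases, 1.56 for exit genes and 1.19 for kinetochore genes. Among G2M cells alone, the medians were 1.15, 1.12, 1.29 and 1.29. Cells called as S phase in cluster 4 carried more mitotic transcript than cells of the same call in cluster 3. The clusters were made from the same expression values, so this too is a description.

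**Figure D3:**
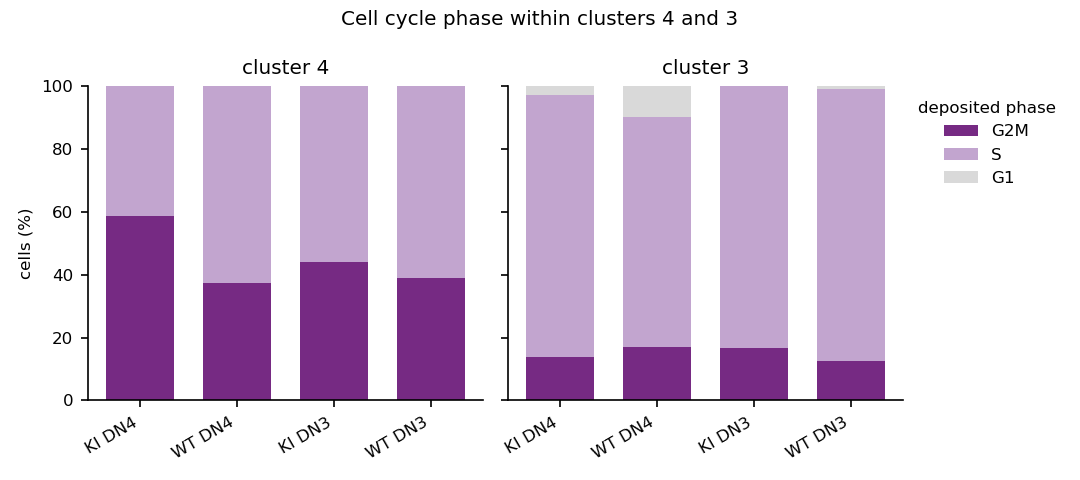
Share of cells (%) by deposited cell cycle phase in clusters 4 and 3, 1 bar per library. In cluster 4 the G2M share runs between 37.5% and 58.5%, and in cluster 3 between 12.5% and 16.9%.

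Against cluster 6, compared in the KI DN3 and WT DN3 libraries, cluster 4 had 212 of 5541 genes at least 2-fold higher in the mean and higher in both (3.83%) and 134 lower (2.42%). The 5 mitotic lists had medians between 2.57 and 3.75, and histones 2.16. The stage genes differed as well: 10 of 11 pre-selection genes were lower (median −0.73), as were 7 of 10 β-selection response genes (−0.79) and 11 of 11 immediate early genes (−0.45), beside a median of −0.03 over all genes. Over all genes tested, 38.4% were higher in both libraries and 43.6% lower. Il2ra, which encodes CD25, had 177 CPM in KI DN3 and 202 CPM in WT DN3 cells of cluster 4, against 385 and 382 CPM in cluster 6. Cd69, an activation antigen, had 21.3 and 31.6 CPM, against 70.9 and 75.2 CPM. Both were lower in cluster 4 in either genotype.
Nkg7, a granule membrane protein, stood at 37.3 and 49.7 CPM, against 218 and 238 CPM, and was among the lowest genes together with Rgs1 and Sult2b1 (log2 ratios −2.40, −2.95 and −2.48).

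Cluster 7, compared in the KI DN4 and WT DN4 libraries, had mitotic lists near those of cluster 4 but differed in genes of other lineages. It held only 75 KI DN4 and 22 WT DN4 cells, with 976945 and 379442 UMIs pooled. Ratios of genes at low levels there rest on few counts and are given without a counting interval. The mitotic lists had medians between −0.24 and 0.02. Cluster 4 had 272 of 5737 genes at least 2-fold higher (4.74%) and 668 lower (11.6%). Lower in cluster 4 were 6 of 6 measured γδ T cell genes (median −3.41), 4 of 4 NK and innate genes (−5.95) and 7 of 7 mature αβ T cell genes (−5.16), where 43.2% of all genes were lower in both libraries and 35.2% higher. These lists had 11, 10 and 9 genes in the matrix, and the rest were under the floor of 20 CPM in both clusters. Members that reached the floor only in cluster 7 could hardly be other than lower in cluster 4, so the counts are a description. Fcer1g, an Fc receptor signalling chain, had 0.338 and 0.169 CPM in cluster 4, against 143 and 97.5 CPM in cluster 7. Higher were Ly6d at 672 and 801 CPM, against 23.5 and 87.0 CPM, and Cd8b1 at 147 and 217 CPM, against 15.4 and 10.5 CPM. The Myc and growth list had 10 of 13 genes higher (median 0.95), with nucleolin (Ncl) at 1295 and 1195 CPM against 529 and 627 CPM.
Against the resting DN3 cells of clusters 0 and 1, 1227 of 6263 genes were lower by 2-fold or more (19.6%) and 780 higher (12.5%). Replication genes were higher in 37 of 38 cases (median 3.28), unlike in the contrast with cluster 3, and pre-selection genes were lower in 13 of 13 (−1.79), where 39.9% of all genes were higher in both libraries and 54.4% lower. Rag1 had 15.4 CPM in KI DN3 and 16.9 CPM in WT DN3 cells of cluster 4, against 178 and 156 CPM.
The lists of other lineages were summed in cluster 4. Early DN1 and DN2 genes summed to between 3.83 and 15.8 CPM over 8 genes per library, with 1 to 3 of them at 0, and B cell genes to between 12.4 and 22.5 CPM over 4 genes, with 1 to 3 at 0. The NK and innate list summed to between 598 and 718 CPM over 10 genes, with 3 to 5 at 0. Nearly all of that sum was Gzma, a granule protease, at 591, 709, 598 and 617 CPM in cluster 4 and 899, 1162, 895 and 977 CPM in cluster 3. Genes of γδ T cells summed to between 161 and 405 CPM over 11 genes, with 2 to 4 at 0, led by Trdc, the δ chain constant gene, at 124, 128, 180 and 169 CPM, and Tcrg-C1. Mature αβ T cell genes summed to between 89.3 and 253 CPM over 9 genes, with 1 or 2 at 0. Myeloid and dendritic genes summed to between 99.2 and 112 CPM over 6 genes, with 2 to 4 at 0, of which Cst3, a protease inhibitor, held 105, 112, 105 and 97.3 CPM. Stromal genes summed to between 33.1 and 75.9 CPM over 3 genes.

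Cluster 4 cells of the 2 sorted stages differed in developmental genes. In KI cells, DN4 over DN3, 38 of 5253 genes stood 2-fold or more above (0.723%) and 62 below (1.18%). Under median-of-ratios scaling, which moved the median of all genes to 0.03 against −0.07, the counts were 44 and 47. In WT cells, 24 of 5306 were higher (0.452%) and 48 lower (0.905%). The genotypes shared 14 higher genes (36.8% of the KI list and 58.3% of the WT list) and 33 lower genes (53.2% and 68.8%). The totals of 100 genes in KI and 72 in WT became 277 and 230 at a floor of 5 CPM, 56 and 37 at 50 CPM, and 152 and 187 in thinned cells. Il2ra was lower by 5.71 and 5.90 on the log2 scale, but CD25 was the antigen of the sort, so this checks the sort and is no finding.
Cd8b1, expressed in the coming double-positive stage, was higher in DN4. Cd8b1 had 147 CPM in KI DN4 and 11.7 CPM in KI DN3 cells (log2 ratio 3.65, 3.33 to 3.98), and 217 CPM in WT DN4 and 9.69 CPM in WT DN3 cells (4.48, 4.06 to 4.94). It was higher in DN4 in both genotypes, in cells chosen to lack surface CD8. A Cd8b1 UMI was found in 77.1% of KI DN4 and 80.1% of WT DN4 cells, against 13.3% of KI DN3 and 12.7% of WT DN3 cells. With cells thinned to 5000 UMIs the shares were 44.6% and 51.0%, against 4.36% and 4.74%. In the resting cells of clusters 0 and 1, with lower depth, 0.486% of KI DN3 and 0.355% of WT DN3 cells held one.
Satb1, a chromatin organiser, had log2 ratios of 1.15 in KI and 1.44 in WT cells, Ikzf3 (Aiolos) 1.59 and 1.45, Cd2, an adhesion receptor, 1.87 and 2.94, Rmnd5a, of an E3 ligase complex, 1.96 and 2.04, and Trac, the α chain constant gene, 1.48 and 1.70. Of 10 pre-selection genes, the sort marker Il2ra among them, 8 had an interval below no change and 2 above in KI cells (median −0.40), and 7 below and 1 above in WT cells (−0.38). Rag1 was the one above in both, with log2 ratios of 0.88 and 0.72. Among other genes that were lower in DN4, Nkg7 had 4.51 and 37.3 CPM in KI DN4 and DN3 (−3.05, −3.56 to −2.56) and 4.90 and 49.7 CPM in WT DN4 and DN3 (−3.34, −3.95 to −2.78). Il7r, the interleukin 7 receptor chain, had 12.9 and 43.4 CPM in KI (−1.76) and 12.2 and 39.0 CPM in WT (−1.68). Tcrg-C1, a γ chain constant gene, had 24.7 and 117 CPM in KI (−2.24) and 44.4 and 203 CPM in WT (−2.19).
Ccnd2 (cyclin D2) was lower by 1.57 in KI and 1.18 in WT cells on the log2 scale, the survival gene Bcl2 by 1.14 and 1.20, and Myl10, a myosin light chain, by 2.24 and 2.39. By contrast Ptcra, which encodes pre-Tα, had 70.8 and 86.8 CPM in KI DN4 and DN3 (−0.29, −0.46 to −0.13) and 107 and 107 CPM in WT DN4 and DN3 (0.00, −0.17 to 0.17).
The growth list had 9 of 12 genes with intervals below no change in both genotypes (medians −0.29 in KI and −0.18 in WT), where 31% of all genes lay below and 15% above in KI cells, and 20.1% below and 11.6% above in WT cells. Mitotic lists had medians between 0.26 and 0.38 in KI cells and between −0.04 and 0.16 in WT cells, and the G2M shares were 58.5% and 44.1% in KI DN4 and DN3 cells and 37.5% and 39.0% in WT DN4 and DN3 cells. In KI cells of 1 phase the medians lay between 0.04 and 0.21 among G2M cells and between 0.30 and 0.50 among S cells.

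**Figure D4:**
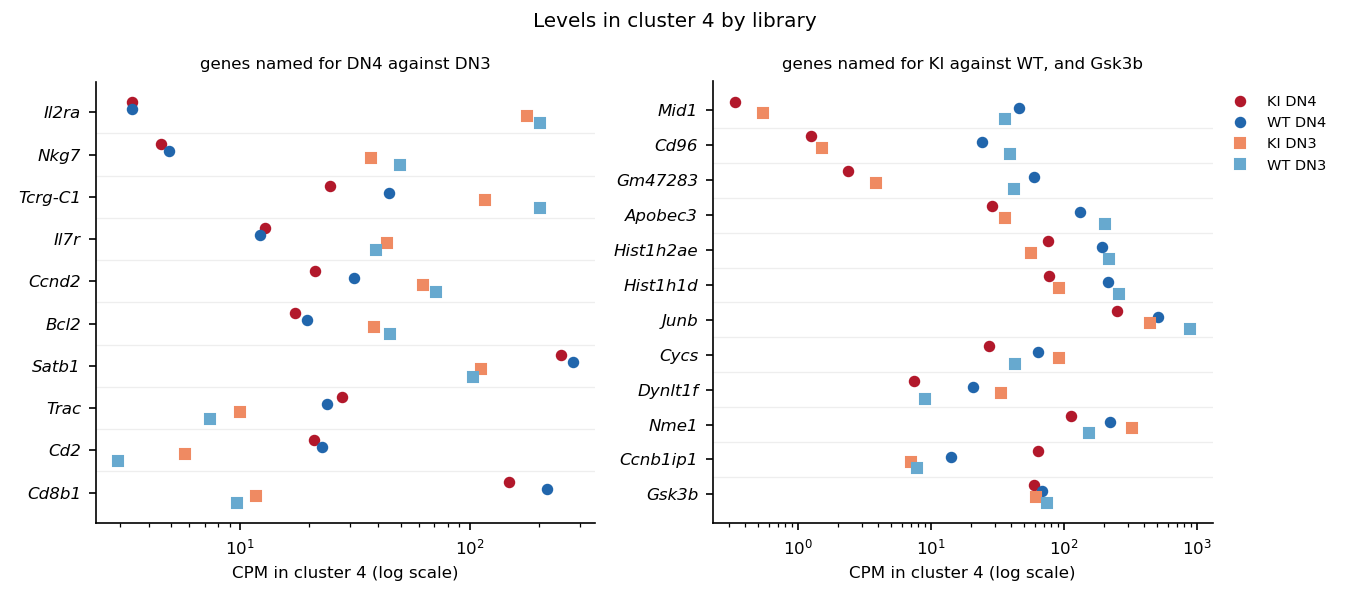
Levels in CPM (log axis) in cluster 4 of genes named for the stage contrast (left) and the genotype contrast (right), 1 point per library. Cd8b1 lies at 147 and 217 CPM in DN4 and at 11.7 and 9.69 CPM in DN3 cells, and Mid1 below 1 CPM in KI cells against 45.8 and 35.8 CPM in WT cells.

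KI was set against WT in cluster 4 within each stage. In DN4, 5 of 5177 genes were at least 2-fold higher in KI (0.0966%) and 23 lower (0.444%), and in DN3, 5 of 5324 were higher (0.0939%) and 33 lower (0.62%). Both stages shared 8 of the lower genes, which is 34.8% of the DN4 and 24.2% of the DN3 list, and 0 of the higher ones. The counts depended on the processing: the 28 genes in DN4 became 106 at a floor of 5 CPM, 12 at 50 CPM, 93 in thinned cells, 47 in G2M cells and 70 in S cells, and the 38 in DN3 became 124, 24, 101, 59 and 56. Gsk3b (chr16:38089001-38246084), which carries the replaced codon, stood at 59.1 CPM in KI DN4, 67.9 in WT DN4, 61.0 in KI DN3 and 73.7 in WT DN3 cells, log2 ratios of −0.20 (−0.39 to −0.01) in DN4 and −0.27 (−0.48 to −0.07) in DN3. The knock-in changes a residue, so these levels give no check of the labels and say nothing of kinase activity.
Of the shared genes, 4 do not encode histones. Mid1, a microtubule-bound ubiquitin ligase (chrX:169685199-170005736), had 0.338 CPM in KI DN4 and 45.8 CPM in WT DN4 cells, and 0.546 CPM in KI DN3 and 35.8 CPM in WT DN3 cells (log2 ratios −7.08 and −6.04). Cd96, a receptor of T and NK cells (chr16:46035657-46120251, the chromosome of Gsk3b), had 1.24 and 24.2 CPM in KI and WT DN4, and 1.50 and 39.0 CPM in KI and WT DN3 (−4.28 and −4.70). Gm47283 (chrY:90784738-90816464) had 2.37 and 59.1 CPM in KI and WT DN4, and 3.82 and 42.1 CPM in KI and WT DN3 (−4.64 and −3.46). Apobec3, a cytidine deaminase that restricts retroviruses, had 28.4 and 130 CPM in DN4, and 36.0 and 203 CPM in DN3 (−2.20 and −2.49). These differences were not confined to dividing cells: in clusters 0 and 1, Mid1 had 0.558 CPM in KI DN3 and 36.4 CPM in WT DN3 cells, and Cd96 had 2.55 and 78.9 CPM. Xist was alike in these cells, at 941 CPM in KI DN3 and 930 CPM in WT DN3. Whether the sex of the mice bears on Gm47283 was not tested.
The other 4 shared genes encode histones. Hist1h1d, a linker histone, had 76.7 CPM in KI DN4 and 215 CPM in WT DN4 cells, and 91.7 and 260 CPM in DN3 (−1.49 and −1.50). Hist1h2ae had 75.4 and 194 CPM in DN4, and 56.2 and 218 CPM in DN3 (−1.36 and −1.96). Hist1h2ac and Hist1h3a ran the same way, with −1.50 and −1.38 in DN4 and −2.45 and −1.03 in DN3. In all, 5 histone genes in DN4 and 17 in DN3 were at least 2-fold lower in KI, and 0 were higher in either. On the histone list the median was −0.57 in DN4, with 8 of 12 below no change and 4 above, and −0.80 in DN3, with 9 below and 3 above. Over all genes, 20.3% lay below no change by their interval and 17.6% above in DN4, and 13% and 15.2% in DN3. Taken within a phase, the histone medians were −0.59 in G2M cells and −0.62 in S cells of DN4, and −0.84 and −1.02 in DN3. So the lower histone counts were present in both phases of both stages.

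Mitotic genes were higher in KI DN4 cells. The spindle list had 17 of 21 genes with an interval above no change and 1 below (median log2 ratio 0.49), the kinetochore list 15 of 19 and 0 (0.40), the condensin, cohesion and passenger list 13 of 15 and 1 (0.40), the kinase list 14 of 21 and 0 (0.37) and the exit list 9 of 12 and 1 (0.44), beside 17.6% of all genes above no change. Plk1 had 229 CPM in KI DN4 and 145 CPM in WT DN4 cells (0.66, 0.54 to 0.77), and Aurkb 260 and 176 CPM (0.56, 0.46 to 0.67). Espl1, separase, which cleaves cohesin at anaphase, had 24.5 and 11.7 CPM (1.07, 0.67 to 1.48). In DN3 the same lists had medians between 0.03 and 0.20. These genes define the cluster and read its phase calls, so the values are a description. The G2M share was 58.5% in KI DN4 and 37.5% in WT DN4 cells. Among G2M cells alone, the 5 DN4 medians lay between −0.02 and 0.10, and among S cells alone between 0.41 and 0.73. Plk1 within G2M cells was 295 CPM in KI DN4 and 279 CPM in WT DN4, and within S cells 127 and 56.9 CPM. The part of the G2M share in the pooled values was not tested.
Replication genes were on the lower side in KI DN4, 23 of 39 below no change and 4 above (median −0.18), with medians of 0.09 in G2M cells and −0.01 in S cells. Ung had 29.9 CPM in KI DN4 and 116 CPM in WT DN4 cells (−1.95, −2.16 to −1.74). Within G2M cells the ratio was positive, with 8.34 CPM in KI DN4 and 3.82 CPM in WT DN4. Both of these levels were under the floor of 20 CPM and rest on few counts.
Immediate early genes lay below no change in 6 of 9 cases and above in 1 in DN4 (median −0.23), and below in 6 of 10 and above in 1 in DN3 (−0.23). Genes of the β-selection response lay below in 5 of 9 cases and above in 0 in DN4 (−0.25), and below in 6 of 9 and above in 0 in DN3 (−0.37). Over all genes, 20.3% lay below in DN4 and 13% in DN3. Junb, an AP-1 subunit, had 249 and 504 CPM in KI and WT DN4 (−1.01, −1.09 to −0.94), and 442 and 879 CPM in KI and WT DN3 (−0.99, −1.06 to −0.92). This was not particular to cluster 4. In KI and WT DN3 cells, Junb had 2399 and 4616 CPM in clusters 0 and 1, and 1215 and 2095 CPM in cluster 6. Id3, induced by pre-T cell receptor signals, had 57.9 and 85.3 CPM in DN4 (−0.56, −0.74 to −0.38), and 48.5 and 75.2 CPM in DN3 (−0.63, −0.85 to −0.42). Cd200, an inhibitory ligand (chr16:45382135-45409053, the chromosome of Gsk3b and Cd96), was the gene furthest above WT in KI DN4, at 25.5 and 1.86 CPM (3.78, 2.91 to 4.80). It was higher in KI among resting cells too, at 56.9 CPM in KI DN3 and 14.9 CPM in WT DN3 cells of clusters 0 and 1.
The KI DN4 library also differed from the other 3 in single genes of unlike function. Ccnb1ip1, a ubiquitin ligase for cyclin B, had 63.1 CPM in KI DN4 and 14.2, 7.10 and 7.80 CPM in WT DN4, KI DN3 and WT DN3 cells. Atp5k, a subunit of ATP synthase, had 445 CPM in KI DN4 and 229, 108 and 245 CPM in WT DN4, KI DN3 and WT DN3 cells. For Atp5k the KI DN3 library stood apart as well, below both WT libraries. It was also lower in clusters 0 and 1, at 57.8 CPM in KI DN3 and 115 CPM in WT DN3 cells.

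Receptor sequences, read from separate libraries, were found in most cluster 4 cells. A productive β chain (TRB) was assembled in 375 of 393 KI DN4 cells (95.4%, 92.9 to 97.3), 244 of 251 WT DN4 cells (97.2%, 94.3 to 98.9), 286 of 347 KI DN3 cells (82.4%, 78.0 to 86.3) and 178 of 213 WT DN3 cells (83.6%, 77.9 to 88.3). Cluster 3 gave 94.7%, 93.0%, 87.0% and 88.5%. Cluster 6 gave 68.3% in KI DN3 and 71.2% in WT DN3 cells, and clusters 0 and 1 gave 4.78% and 6.87%. Cluster 7, also dividing, gave 30.7% in KI DN4 and 40.9% in WT DN4 cells. DN4 cells of cluster 4 were thus above DN3 cells in both genotypes, and cluster 4 stood well above clusters 0 and 1. Median depth in clusters 0 and 1 was only 4864 UMIs in KI DN3 and 5446 UMIs in WT DN3 cells, and its part was not tested. A productive α chain was found in 5, 4, 1 and 0 cells. The count of 0 of 213 allows a share of up to 1.41% by 3 counts, and its exact 95% upper bound is 1.72%.

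**Figure D5:**
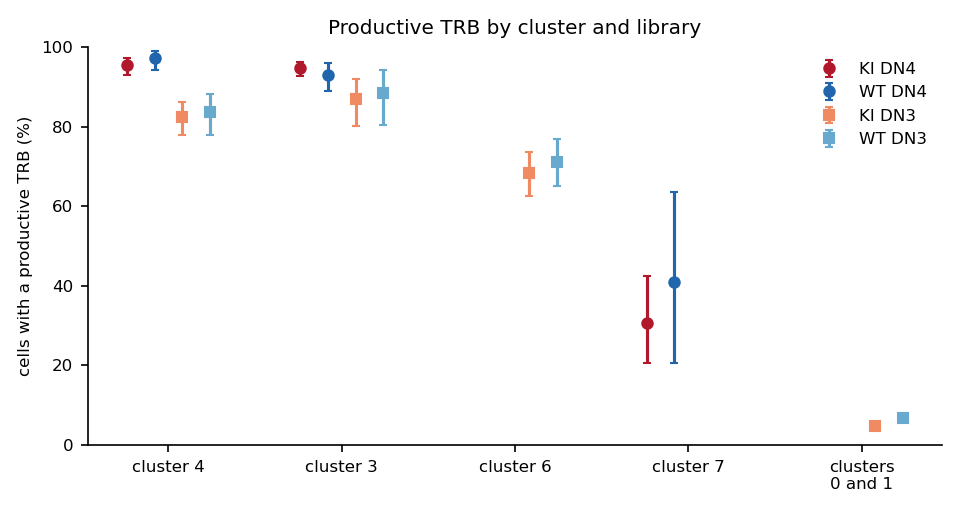
Share of cells (%) with a productive TRB contig by cluster, 1 point per library, with exact 95% binomial intervals of counting error. Cluster 4 lies between 82.4% and 97.2%, and clusters 0 and 1 at 4.78% and 6.87%.

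More than 1 productive TRB was assembled in 8.40%, 7.97%, 6.92% and 7.04% of cluster 4 cells, against 7.04%, 5.79%, 2.90% and 6.25% of cluster 3 cells. The difference averaged 2.09 percentage points ± 1.41 (SD, n = 4 libraries) and was positive in 4 of 4 libraries (exact two-sided permutation of signs, p = 0.125, the smallest that 4 libraries allow, and 0.25 after Benjamini-Hochberg adjustment over 4 measures). Median TRB UMIs per cell were 64, 54, 53.5 and 51, against 48.5, 53, 42.5 and 43, a mean difference of 8.88 ± 6.09 (exact p = 0.125, adjusted 0.25). Neither passes a threshold of 0.05, which this design cannot reach. Cell depth differed in the same way, by 4404.5 UMIs in the mean and in 4 of 4 libraries, and its part in both measures was not tested. The share with a productive TRB had a mean difference of −1.13 points (exact p = 0.75), and that with a rearranged but nonproductive chain of 1.94 points (exact p = 0.5, adjusted 0.667).
The 1175 productive TRB contigs carried 21 V gene labels, among them the joined label TRBV12-2+TRBV13-2 with 94 contigs. Their CDR3 coding stretches had a median of 42 bases (27 to 57), every one a multiple of 3. TRBJ2 segments made up 60.3% and TRBJ1 segments 39.7%, TRBJ2-7 being in 14.2% and TRBV12-1 in 8.43%.

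Few cluster 4 cells shared a β chain with another cell. Within a library, 8 TRB sequences (V, J and CDR3 bases) were found in a pair of cells, at least 1 of them in cluster 4, and these took in 12 of 1083 cluster 4 cells with a TRB (1.11%, 0.574 to 1.93). In 4 pairs both cells were in cluster 4, in 2 the partner was in cluster 3, in 1 in cluster 6 and in 1 in cluster 0 or 1. The 4 CDR3 sequences shared by a pair of cluster 4 cells are shown in full because they are the chains by which 2 of these blasts are alike. No letter is set in capitals. The entry given as TRBV12-2 or TRBV13-2 carried the joined label TRBV12-2+TRBV13-2.
WT DN4, TRBV12-2 or TRBV13-2 with TRBJ1-4: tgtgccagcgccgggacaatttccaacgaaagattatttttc
WT DN4, TRBV31 with TRBJ1-1: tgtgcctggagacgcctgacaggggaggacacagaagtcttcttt
KI DN3, TRBV12-1 with TRBJ1-4: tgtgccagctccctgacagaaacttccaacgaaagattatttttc
WT DN3, TRBV10 with TRBJ2-5: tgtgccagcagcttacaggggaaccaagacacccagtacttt
Each begins with the tgt codon of the conserved cysteine and ends in the ttt or ttc codon of the conserved phenylalanine, in frame, as the productive call requires. Of the barcodes in a receptor library, between 96.9% and 98.2% matched a cell of the same group, and 4 to 15 matched a cell of another group.

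In the DN3 libraries, some cluster 4 cells had no productive TRB contig, 61 in KI and 35 in WT. This split was chosen after values were seen. Without a TRB, 39 of 5508 genes stood 2-fold or more above in both genotypes (0.708%) and 13 below (0.236%). These cells were called G2M in 42.6% of KI and 51.4% of WT cases, against 44.4% and 36.5% of the cells with a TRB. Genes of the pre-selection stage were read at higher levels in them. Ptcra, which encodes pre-Tα, had 243 CPM in cells without a TRB and 61.7 CPM in cells with one in KI DN3, and 263 and 83.7 CPM in WT DN3. Il2ra had 270 and 162 CPM in KI, and 351 and 179 CPM in WT. Cdkn1a, the p53 target and CDK inhibitor p21, had 79.6 and 10.3 CPM in KI (log2 ratio 2.95, 2.46 to 3.44), and 69.9 and 13.3 CPM in WT (2.39, 1.78 to 2.99). All 3 were higher without a TRB in either genotype.

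Pre-selection genes had intervals above no change in both genotypes in 8 of 10 cases (median log2 ratio 0.74) and immediate early genes in 7 of 11 (0.69), where 6.06% of genes did. Growth genes lay below in 5 of 12 cases (−0.33) and glycolysis genes in 7 of 12 (−0.29), where 4.01% of genes did. Ldha, lactate dehydrogenase, had 1289 CPM without and 1842 CPM with a TRB in KI DN3, and 1242 and 1754 CPM in WT DN3. Spindle genes lay above in 11 of 21 cases (0.40), and the 4 markers in 2 of 4. Cells without a TRB held fewer UMIs, with medians of 15245 and 16498 in KI and WT DN3, against 21704 and 23554 with one. The part of depth in these values was not tested. Cells with and without a TRB came from the same libraries, and intervals cover counting error only.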

How the data were processed

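Expression values were raw UMI counts per gene and cell, deposited by the authors as a matrix of 15653 genes by 10237 cells already filtered by a rule not given in the sources used here. Receptor contigs came with read and UMI counts, per the file headers, and no unmapped column of values was used (0 such columns). The processing notes of the submitters name 2 releases of Cell Ranger (3.1.0 and 6.0.1) and the mm10 build, without saying which release made which file or how clusters and phases were called. Clusters, phases and libraries came from the deposited cell table, and 8 samples (4 expression and 4 receptor libraries) were mapped from their labels. Cells held 717 to 46885 UMIs, and none was left out. The members and gene lists, and the TRB measures compared over libraries, were chosen with earlier results of these data known.

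UMIs were summed over the cells of a cluster in a library and divided by their total (CPM). Genes with at least 20 CPM in either sum were kept, and a gene was called at 2-fold. Ratios between libraries carry exact conditional binomial (Poisson) 95% intervals, and shares carry exact Clopper-Pearson intervals. With 0 UMIs, 3 counts per library took the place of 0 and the ratio is a bound. Ratios between clusters were averaged over libraries with equal weight. Genes were named by rule: the 4 markers, Gsk3b, the 15 highest and 10 lowest against cluster 3, the 8 highest and 8 lowest between libraries whose interval excluded no change, and up to 5 per list, without receptor, ribosomal protein, mitochondrially encoded genes and Xist. Genes shared between comparisons, the late genes unlike the rest of their list, Ly6d, Fcer1g, Junb, Atp5k, Xist and the cells without a TRB were chosen after their values were seen. A few genes that the rule names are not reported here. Of 29 lists, those with fewer than 3 measured members have no median. The 4 TRB measures were set against cluster 3 by exact permutation of signs over libraries, a test added after the data were seen. GENCODE vM21 (GRCm38) gave the positions, by symbol, for 141 of 142 named genes. Promoters are RefSeq windows on GRCm38.p6. The ratio and its interval were tested on simulated data. Tools were Python 3.11.15, numpy 2.4.6, scipy 1.17.1, pandas 2.3.3, scanpy 1.11.5 (Scrublet) and, for other scalings, R 4.3.3 with edgeR 4.0.16 and DESeq2 1.42.0. Alternatives were other floors and scalings, cells thinned to 5000 UMIs, doublets left out, and single phases.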

Additional observations from a re-analysis of the deposited data

Results flagged for a closer look

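Genes at least 2-fold apart in opposite directions under the same contrast are given here as values; in each case the difference between the 2 ratios was not tested, since each rests on 1 library per group. Cycs, cytochrome c, had 27.1 CPM in KI DN4 and 64.0 CPM in WT DN4 cells of cluster 4 (log2 ratio −1.24), but 91.5 CPM in KI DN3 and 42.6 CPM in WT DN3 cells (1.10). Dynlt1f, a dynein light chain gene with near-identical copies, had 7.44 and 20.8 CPM in KI and WT DN4 cells (−1.48), and 33.7 and 9.06 CPM in KI and WT DN3 cells (1.90). Read by stage, Dynlt1f had a log2 ratio of DN4 over DN3 of −2.18 in KI and 1.20 in WT cells. Trbv23, a V segment of the β chain locus, had a DN4 over DN3 ratio of 7.90 in KI cells and −1.06 in WT cells. Its UMIs were 290, 181, 1 and 303 in KI DN4, WT DN4, KI DN3 and WT DN3 cells, and its productive contigs were 3, 2, 0 and 3, so each level rests on a handful of cells.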

How the results depend on the processing

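Counts of genes at least 2-fold apart moved with the floor on low values, thinning and the phase. With 5 CPM in place of 20, they were 229 against cluster 3 (143 at 20 CPM), 106 for KI against WT in DN4 (28), 124 in DN3 (38), 277 for DN4 against DN3 in KI (100) and 230 in WT (72). With 50 CPM they were 82, 12, 24, 56 and 37. Thinned cells gave 93 and 101 genes for KI against WT in DN4 and DN3, and 152 and 187 for DN4 against DN3 in KI and WT, with fewer UMIs in each sum; the cause was not tested. G2M cells alone gave 47 and 59 for KI against WT in DN4 and DN3 and 111 for the stages in WT, and S cells alone gave 70 for KI against WT in DN4. TMM and median-of-ratios scaling and leaving out doublets kept each count within 1.5 times. Ung in DN4, KI over WT, reversed to 1.13 among G2M cells, where its levels in both libraries were under 20 CPM. Of the other single-gene values, 659 stayed within 0.5 on the log2 scale (against cluster 3) or their counting interval (between libraries) and 77 moved. Of list medians, 786 stayed within 0.2 and 59 moved, of which 177 and 33 within single phases. With clusters 2, 5 and 7 left out, cluster 4 made up 32.8% of KI DN4 and 46.8% of WT DN4 cells, and without cells under 5000 UMIs 22.5%, 25.4%, 17.7% and 10.8% of KI DN4, WT DN4, KI DN3 and WT DN3 cells. Phase and TRB shares stayed within their intervals. No paired analysis was possible because, between groups, there is 1 expression library each and the labels carry no replicate numbers; the permutation of signs pairs clusters within libraries. Counting intervals do not cover the spread between mice.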
